A study of Mus musculus with 7 samples.

Results

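Replication-dependent histone genes were examined in the mRNA of mouse retinal pigment epithelium (RPE), the pigmented cell layer behind the photoreceptors. The genes were chosen by symbol (H1f1 to H1f5, and the numbered H2ac, H2bc, H3c and H4c genes) among the protein-coding genes, which gave 67 genes of the 52740 in the count table. The family was selected on its difference between the genotypes in these same libraries. That contrast is therefore given for its members as a description, without p-values of single members. Counts of members that pass a threshold stand beside the share of all genes where it was computed, and nothing is read from them. RPE of 4 WT mice (C57BL6/J, 3 females and 1 male) was compared with RPE of 3 LC3b-/- mice (B6;129P2-Map1Lc3btm1Mrab/J, 2 females and 1 male), all 24 months old, with 1 library per mouse and none pooled. LC3b is an autophagy protein coded by Map1lc3b, and the knockout is in every cell of the mouse rather than in the RPE alone. The strain of the knockout has 129P2 ancestry, so genotype and strain background cannot be told apart. The sample names also carry a number that all WT mice share and no LC3b-/- mouse has. Within LC3b-/- it differs between the females and the male. Its meaning is not given, and it cannot be told apart from genotype either. Values per library are given in a fixed order, for WT as females F1, F2 and F3 and then the male M1, and for LC3b-/- as females F1 and F3 and then the male M.

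Replication-dependent histones (H1, H2A, H2B, H3 and H4) package new DNA, and their genes are switched on mainly while a cell copies its genome. Their mRNAs are the known exception among animal mRNAs in that they usually end in a short stem-loop in place of a poly(A) tail. The stem-loop binding protein SLBP holds that structure, the U7 small nuclear RNP with LSM10, LSM11 and ZFP473 guides the cut behind it, and NPAT drives transcription of the clusters. Some of these genes can also use a poly(A) site farther downstream, which has been described in cells that no longer divide. RPE cells of an adult mouse rarely divide. The libraries were made from poly(A)-selected RNA, so a histone transcript that ends at its stem-loop would be largely lost before sequencing, and the values below are levels of what the selection kept.

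Of the 67 genes, 53 lie on mouse chromosome 13 between positions 21899933 and 24118834 (GRCm39), 10 lie within 50.3 kb of chromosome 3 (positions 96127181 to 96177448), 3 on chromosome 11 and 1, H4c16, on chromosome 6. The 13 H4 genes all code for the same protein. Over all annotated coding transcripts, the 12 H3 genes code for 3 distinct proteins, the 18 H2A genes for 9 and the 5 H1 genes for 5. The 19 H2B genes code for 17, a number that includes isoforms, since H2bc6 has 6 and H2bc4 has 4 coding transcripts. A stem-loop was searched in the 150 bases after the stop codon as a stem of 6 bases starting with GG, a loop of 4 bases starting with TT, and the reverse complement of the stem. It was found in 61 of the 67 genes and in 16 other protein-coding genes (0.0750% of them). The 6 genes without a match in their annotated coding transcripts were H2ac22, H2bc21, H2bc23, H2bc24, H3c8 and H4c1.

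The sites of 9 genes are printed to show how little the element varies between the classes and which 5 forms of it stand in the genes described below. Each runs 30 bases from the first base of the stem, 5′ to 3′ on the strand of the gene, with the stem-loop in capitals:
H2bc4 (chr13:23868630-23868659, plus strand): GGCTCTTTTCAGAGCCacccactttctcaa
H1f2 (chr13:23923495-23923524, plus strand): GGCTCTTTTCAGAGCCaccactcccactta
H2ac18 (chr3:96153348-96153377, plus strand): GGCTCTTTTCAGAGCCacccactgaatcag
H3c15 (chr3:96145787-96145816, minus strand): GGCTCTTTTCAGAGCCaccacagcttcccg
H4c8 (chr13:23715628-23715657, plus strand): GGCCCTTTTCAGGGCCgcccacattttctt
H4c9 (chr13:22225122-22225151, minus strand): GGCCCTTTTTAGGGCCaccacaaaatcaaa
H3c6 (chr13:23746063-23746092, minus strand): GGCTCTTTTAAGAGCCacctccattatcca
H2bc3 (chr13:23931186-23931215, plus strand): GGCTCTTTTAAGAGCCacccacacttttca
H4c11 (chr13:21919607-21919636, plus strand): GGTCCTTTTCAGGACCaccacatcttttac
The form of H2bc4, H1f2, H2ac18 and H3c15 stands in 40 genes of the H1, H2A, H2B and H3 classes. The form of H4c8 stands in 8 genes, all of them H4. The form of H3c6 and H2bc3 stands in 8 H2A, H2B and H3 genes, that of H4c9 in 2 H4 genes and that of H4c11 in 2 H4 genes. Likeness between members reaches beyond the stem-loop. At 95% identity over at least 100 bases on either strand, only 6 of the 67 genes have no near-identical copy among the annotated transcripts. Any such stretch counts as a copy, also one shared with a gene that is no histone gene. Examples are H4c16 (19 copies, 0 of them members) and H2bc9 (68 copies, 9 of them members). The split of counts between single members is therefore uncertain, and sums over a class are given beside them. Such sums leave out copies outside the family, as for H2ac25 (18 copies, 0 of them members) and H2ac18 (15 copies, 3 of them members).

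Members took 0.0656% to 0.0979% of the counts of a WT library and 0.0385% to 0.0527% of an LC3b-/- library, where libraries held 24495952 to 35616134 counts. No count was found for 9 of the 67 genes in any library (H2ac1, H2ac4, H2ac11, H2ac22, H2ac23, H2bc1, H3c10, H3c13 and H3c14), and 22 stayed under 10 counts in every library. The edgeR filter on low counts kept 33 of the 67 genes, among 16990 in all, and the 34 others held 0.517% of the counts of the family. Levels are given as CPM, counts scaled to the library size with TMM factors. H2bc4, H1f2, H2ac18 and H2ac25 carried 76.7% of the summed CPM of the family and the 8 highest members 89.9%. The other 25 genes that passed had mean levels of 0.358 to 10.2 CPM, 10 of them under 1 CPM. Per kilobase of annotated exon, the highest mean levels over the 7 libraries were 218 CPM per kb for H2ac18, 83.9 for H1f2, 57.8 for H4c9, 55.7 for H2bc4, 44.3 for H2ac25 and 42.0 for H4c8.

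Counts in the family were concentrated in genes whose annotation reaches past the stem-loop. Transcript ends, exon lengths and near-identical copies come from GENCODE vM39, a later release than the vM26 transcripts to which the reads were assigned, so some ends and copies may differ from those used in counting. The annotated transcript ended at most 100 bases past the stem-loop in 37 genes, a class called at the stem-loop, and more than 100 bases past it in 24. Some annotations among the 37 stop before the last base of the stem-loop, such as H2ac10 by 70 bases, H2ac1 by 55 and H4c12 by 44. That class therefore also holds annotations that do not reach the whole stem-loop. The filter kept 9 of those 37 genes and 21 of those 24, and the median count over all libraries was 12 in the first class and 463.5 in the second. The 24 genes with an extended end held 73.8% of the counts of the family, and the 17 genes whose transcript ends behind a poly(A) signal held 73.0%. Such a signal (AATAAA or ATTAAA in the last 40 bases) was found at the end of any coding transcript in only those 17 of the 67 genes. Over all protein-coding genes it stands at the end of 69.1% of transcripts, which is a share of transcripts and not of counts. H2bc4 is an example of the extended kind, with its longest transcript reaching 9518 bases of genome past the stem-loop, and H2ac25 reaches 1643 bases past it. H2ac18, also among the most abundant members, goes against this pattern, since its annotation stops 35 bases past the stem-loop. Annotated exons of extended genes are longer and can collect more reads, and the part of length in this contrast was not tested.

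**Figure D1:**
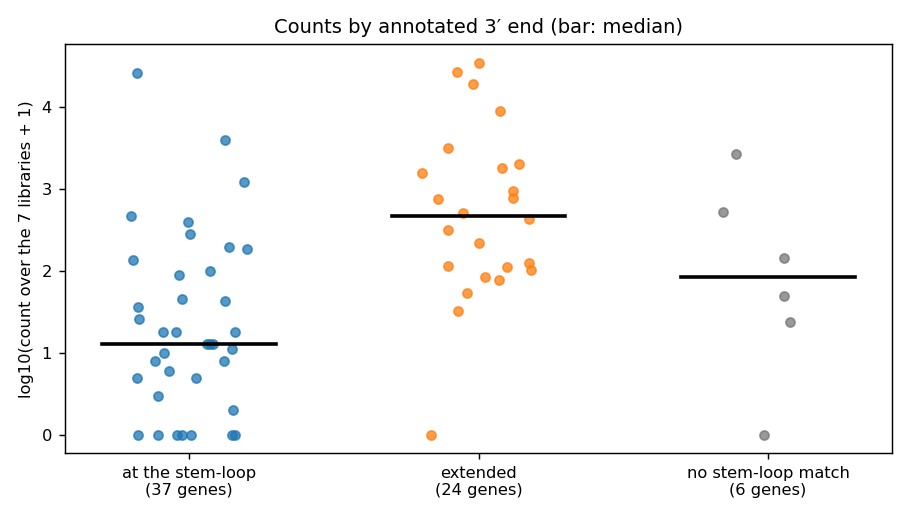
Total counts of the 67 histone genes over the 7 libraries (log10 of the count plus 1), split by where the annotated transcript ends. The class at the stem-loop (37 genes) holds ends at most 100 bases past it, also ends before it. The others end more than 100 bases past it (24 genes) or have no stem-loop match (6 genes). Each point is a gene and the bar is the median; the median count was 12 in the first class and 463.5 in the second.

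The question asked of the genotypes was which transcripts differ in RPE that lacks LC3b. Map1lc3b had 2778 to 4444 counts in the WT libraries and 168 to 332 in the LC3b-/- libraries, so the targeted gene fits all 7 labels (log2 fold change −3.98 ± 0.15 SE, edgeR quasi-likelihood test, adjusted p = 0.000186). Summed over all 67 genes, histone mRNA stood at 668, 785, 966 and 974 CPM in the WT libraries and at 414, 461 and 527 CPM in the LC3b-/- libraries. Each LC3b-/- library therefore lay below each WT library, with means of 848 ± 148 (SD, n = 4) and 467 ± 56.8 CPM (SD, n = 3) and a ratio of 0.551. Without H2bc4, H1f2, H2ac18 and H2ac25 the groups overlapped, at 140 to 232 CPM in WT and 103 to 145 CPM in LC3b-/-, and the ratio was 0.666. RPE was sequenced in bulk, where fewer cells of a type and less RNA per cell cannot be told apart.

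Of the 33 genes that passed the filter, 28 had a lower and 5 a higher mean in LC3b-/- RPE, and the median log2 fold change was −0.93, beside 0.01 over all 16990 genes. The groups did not overlap for 18 of the 33, beside 22.3% of all genes. Every LC3b-/- library was below every WT library for 16 of these (10.3% of all genes) and above for the other two, H2ac24 and H2bc24. With edgeR (adjusted p under 0.05 and a fold of at least 1.5) 0 of the 33 were called, beside 40 of all genes (0.235%), and 17 had an unadjusted p under 0.05, beside 24.1% of all genes. DESeq2 called 15 of the 33, 13 lower and 2 higher, beside 10.8% of all genes, and limma's voom called 3, beside 0.730%. These counts come from the contrast that chose the family, and nothing is read from them. Among single libraries, LC3b-/- F1 lay below all WT libraries for 21 of the 33 genes, LC3b-/- F3 for 16 and LC3b-/- M for 19, and WT F3 was the highest library for 14. No share of all genes was computed for single libraries, so nothing is read from these counts. Without LC3b-/- F1, the library with the most ocular surface transcripts, 16 of the 33 genes had the remaining LC3b-/- libraries below all WT libraries and 2 above, beside 12.8% and 14.4% of all genes. Refitted without that library, 36 members passed the filter and their median was −0.93. The LC3b-/- libraries kept, F3 and M, still held 7030 and 3509.7 CPM of ocular surface markers, above the WT maximum of 2489.7 CPM. Leaving out LC3b-/- F1 therefore does not remove that difference between the groups. These values also come from the contrast that chose the family, and the part of ocular surface cells was not tested.

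**Figure D2:**
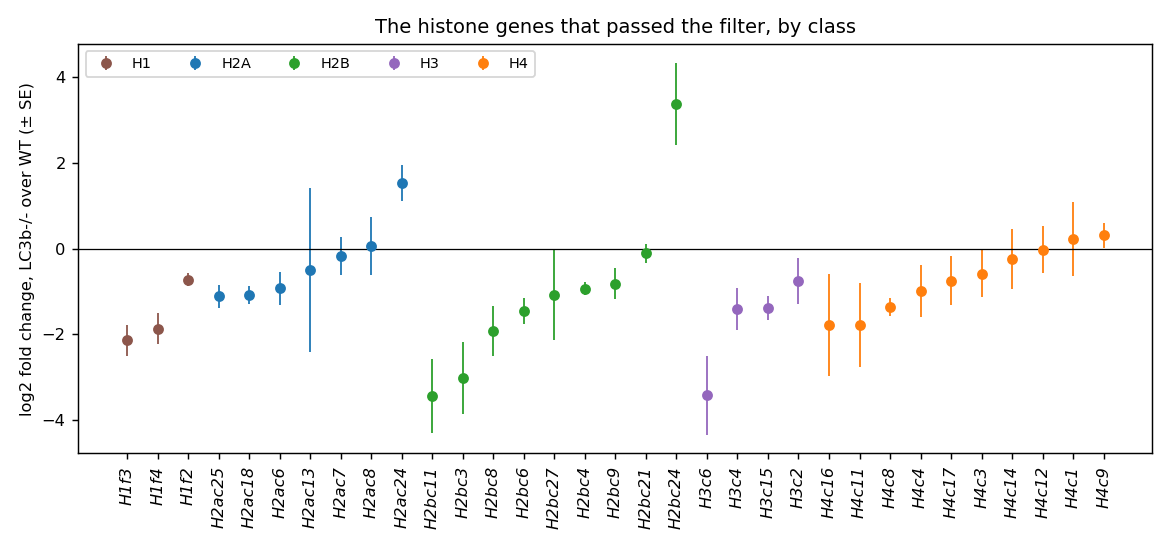
Log2 fold change of LC3b-/- over WT for the 33 histone genes that passed the filter, ordered within the classes H1, H2A, H2B, H3 and H4; bars are standard errors. The 28 points below 0 include all H1 and H3 genes shown, and the 2 points far above 0 are H2ac24 and H2bc24.

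The linker histone H1 binds DNA at the entry of the nucleosome, and H1f2 is its most abundant member here. H1f2 (chr13:23922791-23924350) stood at 128, 154, 177 and 171 CPM in WT and at 81.1, 98.8 and 106 CPM in LC3b-/-. The groups did not overlap, and the log2 fold change was −0.72 ± 0.16 (SE). H1f2 is also 1 of only 3 tested members without a near-identical copy, beside H2bc21 and H4c14. H1f4 averaged 13.2 ± 5.03 CPM in WT and 3.59 ± 1.05 CPM in LC3b-/- (SD, n = 4 and 3), a log2 fold change of −1.87 ± 0.36. H1f3 averaged 5.65 ± 2.17 and 1.28 ± 0.215 CPM, a log2 fold change of −2.14 ± 0.36. H1f1 and H1f5 did not pass the filter. Summed over the class, H1 mRNA was at 142 to 206 CPM in WT and 85.0 to 112 CPM in LC3b-/-.

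H2A and H2B form the outer dimers of the nucleosome, and their genes held the most counts of the family. H2bc4 (chr13:23867631-23878163), the most abundant member, stood at 180.4, 197, 234 and 252 CPM in WT and at 117, 104 and 118 CPM in LC3b-/-. The 3 LC3b-/- libraries lay close together and below all WT libraries (log2 fold change −0.93 ± 0.15). H2ac18 (chr3:96152813-96153398) stood at 135, 139, 173 and 214 CPM in WT and 74.7, 68.4 and 91.0 CPM in LC3b-/-, again without overlap (−1.08 ± 0.20). Its neighbour H2ac19 is a near-identical copy and had 184 counts in WT F2 and 0 in the other 6 libraries. Summed, the pair had 134.8 to 214 CPM in WT and 68.4 to 91.0 CPM in LC3b-/-, and the log2 ratio of the means was −1.10. H2ac25 (chr11:58845511-58847656) lies outside the large clusters and stood at 84.8, 125, 150.1 and 134 CPM in WT and 37.7, 65.7 and 67.8 CPM in LC3b-/- (−1.11 ± 0.27). All LC3b-/- values of H2ac25 were below the lowest WT value, WT F1.

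H2bc6 (chr13:23766595-23805139) stood at 16.04, 16.3, 31.6 and 21.5 CPM in WT and 5.72, 9.08 and 8.57 CPM in LC3b-/- (−1.45 ± 0.30), and WT F3 was the highest library. One of its annotated exons overlaps H1f4, so reads of both genes may be mixed. Their sum was at 25.7 to 51.9 CPM in WT and 8.13 to 13.01 CPM in LC3b-/-. H2bc21 (chr3:96128435-96131054), which has no stem-loop match in its annotated transcript and no near-identical copy, overlapped between the groups. Its levels were 12.03, 9.82, 16.3 and 14.2 CPM in WT and 10.4, 15.1 and 10.8 CPM in LC3b-/-, with a log2 fold change of −0.11 ± 0.22. Among low members, H2bc11 (chr13:22227384-22227846) stood at 2.28, 2.94, 4.27 and 3.96 CPM in WT and at 0, 0.426 and 0.473 CPM in LC3b-/- (−3.42 ± 0.86). H2bc3 (chr13:23929333-23931879) stood at 1.67, 1.28, 2.13 and 1.96 CPM in WT and 0, 0.351 and 0.266 CPM in LC3b-/- (−3.02 ± 0.84). Both rest on few counts, with at most 17 counts in an LC3b-/- library, and without LC3b-/- F3 the log2 fold change of H2bc3 was −3.64. H2bc24, which was higher in LC3b-/- (3.38 ± 0.96), is a near-identical copy of both. The split of counts between H2bc11, H2bc3 and H2bc24 is therefore uncertain, and they were not summed. The other tested H2A and H2B genes below 0 on the log2 scale, leaving out those named above, were H2ac6, H2ac7, H2ac13, H2bc8, H2bc9 and H2bc27, from −1.93 (H2bc8) to −0.18 (H2ac7). H2bc27 was highest in WT F2 at 14.5 CPM and lowest in LC3b-/- F1 at 0.242 CPM, and its groups overlapped.

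**Figure D3:**
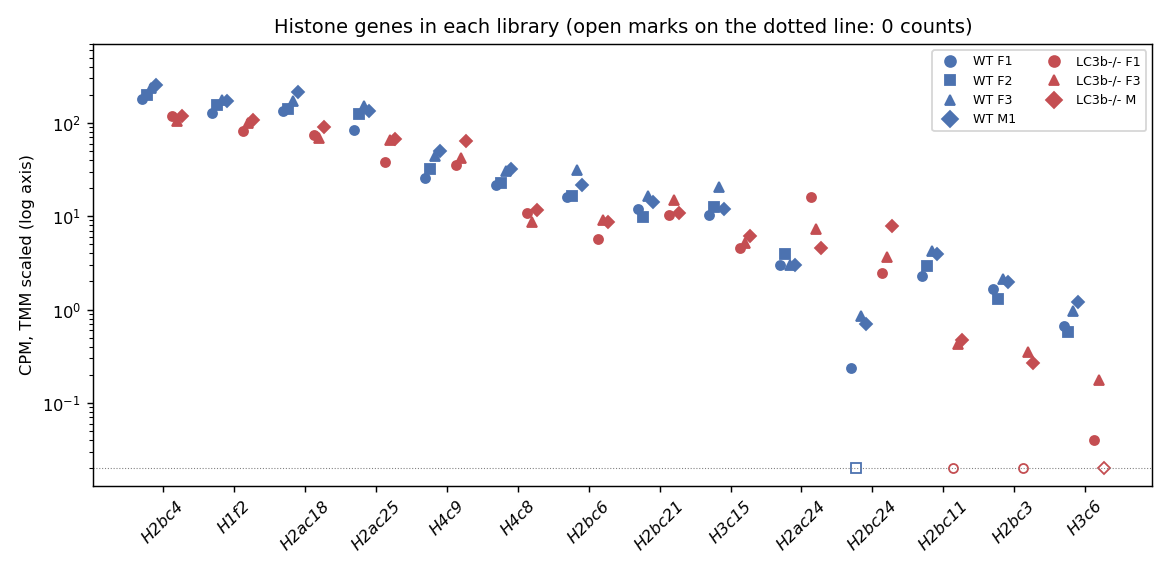
Level of 14 histone genes in each of the 7 libraries as TMM-scaled CPM on a log axis; blue marks are WT and red marks LC3b-/-, circles F1, squares F2, triangles F3 and diamonds males, and open marks on the dotted line stand for 0 counts. Red marks lie below all blue marks for 10 genes, above them for H2ac24 and H2bc24, and among them for H4c9 and H2bc21.

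The neighbours H2ac24 and H2bc24 had the opposite sign from most of the family. H2ac24 (chr13:22017196-22017677, minus strand) stood at 2.99, 3.89, 3.00 and 3.04 CPM in WT and 16.1, 7.25 and 4.58 CPM in LC3b-/- F1, F3 and M (log2 fold change 1.53 ± 0.41). H2bc24 (chr13:22017911-22021700, plus strand) stood at 0.234, 0, 0.861 and 0.692 CPM in WT and 2.46, 3.69 and 7.86 CPM in LC3b-/- (3.38 ± 0.96, and 2.77 without LC3b-/- M). For both genes every LC3b-/- library was above every WT library, but the order of the LC3b-/- libraries was opposite, with F1 highest for H2ac24 and M highest for H2bc24. H2ac24 shares near-identical sequence with 37 annotated genes and H2bc24 with 13 other members, among them H2bc11 and H2bc3, which were lower in LC3b-/-. H2bc12, a further H2B gene, had 47 and 49 counts in LC3b-/- F1 and F3, 0 in LC3b-/- M and at most 3 in WT, and did not pass the filter.

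H2ac24 and H2bc24 are transcribed away from each other, as are the genes of 13 pairs of members that lie head to head. Both genes passed the filter in only 2 of those pairs. The intervals between the starts of these 2 pairs are printed because both genes of 1 pair had the same sign and those of the other did not, and capitals mark CCAAT and TATAAA on either strand of the printed interval:
H2ac24/H2bc24 interval (chr13:22017678-22017910, plus strand): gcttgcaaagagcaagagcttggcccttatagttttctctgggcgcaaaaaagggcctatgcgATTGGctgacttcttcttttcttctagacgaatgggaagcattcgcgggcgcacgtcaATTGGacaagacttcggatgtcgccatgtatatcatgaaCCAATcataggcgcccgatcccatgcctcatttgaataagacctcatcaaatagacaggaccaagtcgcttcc
H2ac8/H2bc8 interval (chr13:23755395-23755569, plus strand): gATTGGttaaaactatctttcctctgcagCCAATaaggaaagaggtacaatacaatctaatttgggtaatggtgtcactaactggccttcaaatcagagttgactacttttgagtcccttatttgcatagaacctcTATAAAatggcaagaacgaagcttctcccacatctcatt
In the second pair H2bc8 stood at 9.28, 5.92, 13.4 and 16.1 CPM in WT and 0.966, 2.76 and 5.05 CPM in LC3b-/- (−1.93 ± 0.58). H2ac8, on the other side of the same interval, stayed between 0.124 and 1.08 CPM in WT and 0.443 and 0.679 CPM in LC3b-/- (0.065 ± 0.67), so its groups overlapped. The first interval holds 3 matches to CCAAT and none to TATAAA, the second 2 and 1. From 250 bases before to 50 bases after the start, CCAAT was found on either strand in 53 of the 67 promoters of the family (79.1%) and in 39.8% of all protein-coding promoters, and TATAAA in 34 (50.7%) and 13.7%. These are matches of letters, not binding sites.

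H3 and H4 form the core tetramer of the nucleosome. H3c15 (chr3:96145424-96146443), the highest H3 gene, stood at 10.2, 12.5, 20.7 and 11.8 CPM in WT and 4.51, 5.17 and 6.20 CPM in LC3b-/- (−1.38 ± 0.28). H3c6 (chr13:23745708-23746543) stood at 0.673, 0.580, 0.974 and 1.19 CPM in WT and 0.0403, 0.176 and 0 CPM in LC3b-/- (−3.41 ± 0.92). H3c6 rests on 1, 7 and 0 counts in LC3b-/-, and without LC3b-/- F3 its log2 fold change was −5.29. Both genes were below every WT library in each LC3b-/- library, as was H3c4 (−1.42 ± 0.49), whereas H3c2 overlapped (−0.75 ± 0.54). The H3 class as a whole was the smallest, with 15.0 to 26.7 CPM in WT and 5.64 to 8.95 CPM in LC3b-/-.

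H4 was the class in which the groups overlapped. Its 2 most abundant genes code for the same protein but had log2 fold changes of opposite sign. H4c8 (chr13:23715220-23715689) stood at 21.5, 22.7, 30.3 and 32.4 CPM in WT and 11.0, 8.63 and 11.7 CPM in LC3b-/-, without overlap (−1.36 ± 0.20). H4c9 (chr13:22224806-22225532) stood at 26.0, 32.1, 44.6 and 49.8 CPM in WT and 35.3, 41.8 and 64.5 CPM in LC3b-/-, where the groups overlapped (0.31 ± 0.29). H4c8 and H4c9 are near-identical copies, and their sum was at 47.5 to 82.2 CPM in WT and 46.3 to 76.2 CPM in LC3b-/- (log2 ratio of the means −0.17). Of the 10 H4 genes tested, only H4c8 was below all WT libraries in each LC3b-/- library. H4c16 was highest in WT F2 at 6.59 CPM and lowest in WT M1 at 0.0384 CPM.

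With counts summed within each class before the fit, the log2 fold changes were −0.81 ± 0.17 for H1, −1.02 ± 0.19 for H2A, −0.91 ± 0.16 for H2B, −1.38 ± 0.26 for H3 and −0.23 ± 0.24 for H4 (SE). H4 took 8.12% to 9.25% of the summed CPM of the family in the WT libraries and 12.2% to 15.7% in the LC3b-/- libraries. H2A took 34.2% to 36.9% in WT and 31.6% to 32.0% in LC3b-/-. The sums over the chromosome 13 and chromosome 3 genes had ratios of LC3b-/- to WT of 0.596 and 0.493. The ratio was 0.551 for genes with an extended end and 0.505 for genes ending at the stem-loop. For the 6 genes without a stem-loop match the ratio was 1.19, and the groups overlapped. H2ac18 alone averaged 165 CPM in WT, beside sums of 208 CPM for genes ending at the stem-loop and 195 CPM for chromosome 3. Of 9 tested genes ending at the stem-loop, 3 had every LC3b-/- library below every WT library (median log2 fold change −0.74). Of 21 tested genes with an extended end, 13 did (median −1.11). Over all genes the share was 10.3%. These counts come from the contrast that chose the family, and nothing is read from the difference between the classes.

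**Figure D4:**
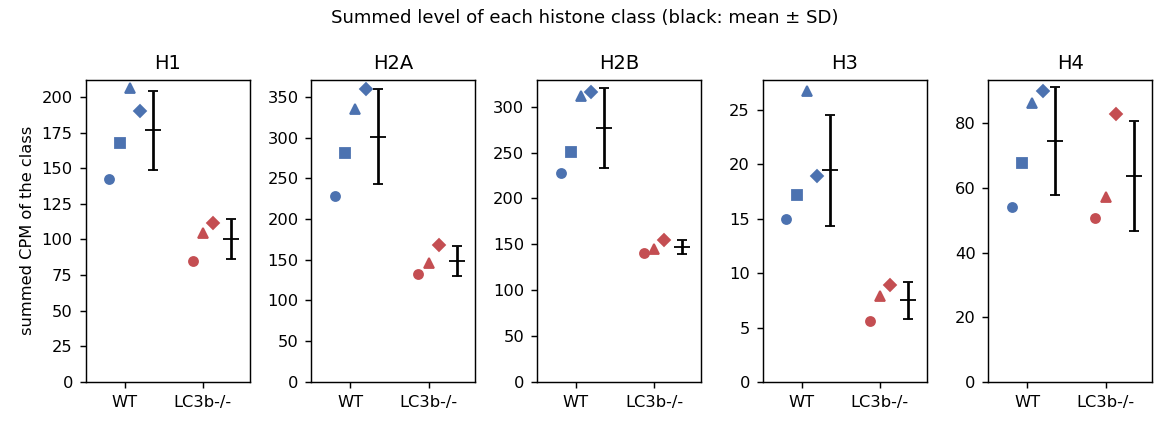
Summed CPM of each histone class in the 4 WT libraries (blue) and the 3 LC3b-/- libraries (red), with circles for F1, squares for F2, triangles for F3 and diamonds for males; the black bar is the mean ± SD. The groups are apart for H1, H2A, H2B and H3 and overlap for H4, where WT spans 54.2 to 90.1 CPM and LC3b-/- 50.7 to 82.9 CPM.

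Sex was not used to choose the family and was tested with genotype as a second term (5 females, 2 males). With edgeR 0 of the 33 members were called, beside 0 (0%) of all genes, and DESeq2 and limma's voom also called 0 of them, beside 2.61% and 0.00589% of all genes. An unadjusted p under 0.05 was reached by 2 of the 33, beside 11.0% of all genes. These were H2ac18 (log2 fold change of male over female 0.44 ± 0.13, edgeR adjusted p = 0.350) and H4c9 (0.64 ± 0.21, edgeR adjusted p = 0.379). With 2 males this contrast has little power. Xist itself, at most 79 counts in the males and at least 15942 in the females, had an adjusted p of 0.116 in the same edgeR fit.

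The genes around the histone family were measured in the same edgeR fit of LC3b-/- against WT, and 0 of the genes in any of the 7 lists below were called. Counts at an unadjusted p under 0.05 are to be read beside the 24.1% of all genes that reached it. Histone variants, many of which replace the canonical histones outside S phase and have mRNAs with poly(A) tails, form the first list. Their median log2 fold change was 0.23 over 11 genes tested, 8 higher and 3 lower, with 6 at an unadjusted p under 0.05. H3f3a and H3f3b, which code for H3.3, averaged 318 ± 13.8 and 437 ± 67.7 CPM in WT and 335 ± 43.3 and 529 ± 73.8 CPM in LC3b-/- (SD, n = 4 and 3; adjusted p = 0.755 and 0.375). H2az1, an H2A.Z gene, was at 60.7 to 73.1 CPM in WT and 81.2 to 121 CPM in LC3b-/- (0.53 ± 0.16, adjusted p = 0.125). H2ax, the DNA damage variant, overlapped (0.23 ± 0.23, adjusted p = 0.566). Cenpa, the centromeric H3, was at 1.05 to 2.43 CPM in WT and 4.55 to 8.74 CPM in LC3b-/- (1.76 ± 0.37, adjusted p = 0.0906). H1f0, the linker histone of cells that have stopped dividing, was at 161 to 222 CPM in WT and 109 to 130.4 CPM in LC3b-/- (−0.68 ± 0.15, adjusted p = 0.0906).

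The factors that make and degrade histone mRNA had a median log2 fold change of −0.018 over 39 genes tested, 18 higher and 21 lower, with 5 at an unadjusted p under 0.05. Slbp was at 18.3 to 21.8 CPM in WT and 17.9 to 27.2 CPM in LC3b-/- (0.15 ± 0.16, adjusted p = 0.618). Lsm10, Lsm11 and Zfp473 of the U7 particle had log2 fold changes of −0.21 ± 0.23, 0.065 ± 0.23 and −0.20 ± 0.66, and Npat and Casp8ap2, which organise transcription at the histone locus, 0.042 ± 0.15 and 0.21 ± 0.16 (edgeR adjusted p from 0.452 to 0.888). All these groups overlapped. The smallest unadjusted p of the list belonged to Mif4gd, which links SLBP to translation (−0.62 ± 0.17, adjusted p = 0.109), Tut7, which adds uridines to histone mRNA for decay (0.47 ± 0.13, adjusted p = 0.115), and Cstf2t, a cleavage factor (−0.41 ± 0.13, adjusted p = 0.123). Histone chaperones had a median of 0.095 over 26 genes tested, with 7 at an unadjusted p under 0.05. Among them Chaf1b, of the complex that deposits histones behind the replication fork (1.57 ± 0.36, adjusted p = 0.0947), Nasp, an H3-H4 chaperone (0.61 ± 0.16, adjusted p = 0.0988), and Spty2d1 (0.37 ± 0.10, adjusted p = 0.107) had the smallest. The poly(A) machinery had a median of 0.070 over 13 genes, with 2 at an unadjusted p under 0.05, Pabpc1 (0.87 ± 0.22, adjusted p = 0.0989) and Tent4a (0.34 ± 0.13, adjusted p = 0.188), followed by Zc3h14 (−0.25 ± 0.11, adjusted p = 0.209).

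Genes of S phase and of mitosis had mostly positive log2 fold changes. The S phase list had a median log2 fold change of 0.46 over 44 genes tested, 39 higher and 5 lower, with 13 of 44 at an unadjusted p under 0.05, beside 24.1% of all genes. Cdt1, a licensing factor (1.21 ± 0.28, adjusted p = 0.0945), Pola2, a subunit of DNA polymerase alpha (0.87 ± 0.21, adjusted p = 0.0960), and Ccne1, cyclin E1 (2.32 ± 0.57, adjusted p = 0.0967), had the smallest. Pcna, the sliding clamp, had the opposite sign, at 67.7 to 81.0 CPM in WT and 52.1 to 59.8 CPM in LC3b-/- (−0.40 ± 0.11, adjusted p = 0.105). The list of G2 and mitosis had a median of 2.07 over 28 genes, 27 higher and 1 lower, with 22 at an unadjusted p under 0.05. Its summed level was 48.1 to 71.3 CPM in WT and 95.7 to 224 CPM in LC3b-/-. Mki67, a marker of cycling cells, was at 0.412 to 4.34 CPM in WT and at 35.3, 16.7 and 9.60 CPM in LC3b-/- F1, F3 and M (2.92 ± 0.73, adjusted p = 0.0968, and 2.27 without LC3b-/- F1). Top2a was at 0.487 to 4.34 CPM in WT and 6.73 to 20.5 CPM in LC3b-/- (2.63 ± 0.67, adjusted p = 0.0991). Birc5 (2.22 ± 0.37, adjusted p = 0.0709), Aurkb (3.20 ± 0.57, adjusted p = 0.0834) and Plk1 (2.04 ± 0.37, adjusted p = 0.0842) had the smallest p of the list. DESeq2, which called 10.8% of all genes, called 16 of the 28 genes of the mitosis list, 5 of 44 of the S phase list, 3 of 26 chaperones, 2 of 11 variants, 1 of 39 processing genes and 1 of 13 poly(A) genes.

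**Figure D5:**
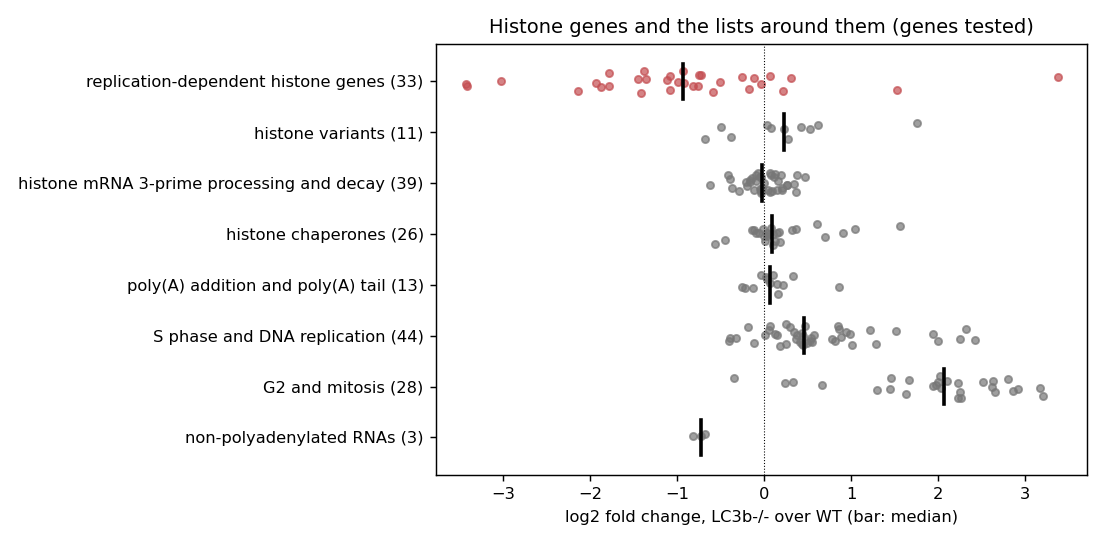
Log2 fold change of LC3b-/- over WT for the 33 tested histone genes (red) and for the tested genes of 7 lists (grey, number tested in parentheses); the bar is the median. The medians were −0.93 for the histone genes, 0.46 for the S phase list and 2.07 for the list of G2 and mitosis.

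RNAs that carry no poly(A) tail stayed low in all libraries. Of 23 such RNAs listed, 20 were matched by symbol and 3 passed the filter and none was called, with 1 at an unadjusted p under 0.05 (the median log2 fold change was −0.73). Their summed level was 18.4 to 34.5 CPM in WT and 10.3 to 19.05 CPM in LC3b-/-. Rn7s1, the signal recognition particle RNA, held most of it, at 16.9 to 31.1 CPM in WT and 8.95 to 16.9 CPM in LC3b-/- (−0.81 ± 0.28, adjusted p = 0.153), and Rpph1 (−0.73 ± 0.59, adjusted p = 0.474) and Scarna2 (−0.67 ± 0.88, adjusted p = 0.666) were the others. Their part in the histone result was not tested.

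Markers of 13 cell types were measured beside the histone genes, none of them called, and their summed levels overlapped between the groups for 8 of the 13 lists. The RPE list, present in all libraries with none of its 15 markers at 0, had 13 genes with a lower mean and 2 with a higher mean in LC3b-/-, 0 called and 8 of 15 at an unadjusted p under 0.05, beside 24.1% of all genes. Its summed level was 33561 to 51721 CPM in WT and 15676 to 31113 CPM in LC3b-/-, without overlap. The ocular surface epithelium list had higher means for all 11 genes tested, 0 called and 8 of 11 at an unadjusted p under 0.05, and Sprr1b was at 0 in all libraries. Its sum was 10.2 to 2489.7 CPM in WT and 3509.7 to 25621 CPM in LC3b-/-, with the highest value in LC3b-/- F1, and Krt5, its basal keratin, was at 3.00 to 1021 CPM in WT and 1257 to 8195 CPM in LC3b-/-. The endothelium list also did not overlap, at 409 to 1318 CPM in WT and 1486 to 1755 CPM in LC3b-/-. All 14 photoreceptor markers had a lower mean in LC3b-/- (0 called and 0 at an unadjusted p under 0.05), with overlapping sums, from 297 to 20918 CPM in WT and 104 to 7150.3 CPM in LC3b-/-. The remaining lists overlapped (fibroblast and choroidal stroma, macrophage and microglia, erythroid, neutrophil, lymphocyte, lens and skeletal muscle), except Muller glia (12639 to 16476 against 10161 to 12401 CPM) and melanocyte (463 to 1213 against 342 to 433 CPM). Of 9 Muller glia markers 6 had a lower and 3 a higher mean, and of 7 melanocyte markers 6 and 1. In both lists 0 markers had every LC3b-/- library below every WT library, beside 10.3% of all genes, and 1 melanocyte marker had every one above. Rlbp1 stands in both the RPE and the Muller glia list. The part of these cell types in the levels of the histone genes and of the mitosis genes was not tested.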

How the data were processed

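RNA of RPE from 7 mice was sequenced as stranded poly(A)-selected mRNA with single reads of 100 bases. The authors used Salmon to assign reads to the transcripts of GENCODE vM26 (GRCm39) and collapsed these per gene with tximeta. The deposited values are estimated counts, unscaled, that stand as whole numbers in the table. All 7 columns were used (0 unused). Symbols and biotypes come from GENCODE vM39 (51721 of 52740 identifiers matched).

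The genotypes were compared by edgeR 4.0.16 under R 4.3.3 (filterByExpr, TMM, quasi-likelihood test, Benjamini-Hochberg adjustment over all 16990 genes; a call needed a fold of at least 1.5 besides an adjusted p under 0.05). LC3b-/- was compared with WT without covariates, and male with female with genotype as a term. SE is the size of the log2 fold change before shrinkage, divided by the root of F. The log2 fold changes printed are the shrunk ones, which can differ from it at low counts. Alternatives were DESeq2 1.42.0, voom of limma 3.58.1, other scalings, filters, samples and a block. BLAST 2.17.0 gave near-identical copies (95% identity or more over 100 bases), and tables and figures were made with Python 3.11.15 and matplotlib 3.10.9. The code was tested on simulated data. p-values measure the spread between these mice.

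The members and lists were chosen with earlier results of these data known. Named are the 8 members of highest mean CPM, the 4 of largest log2 fold change, the highest of each class, fixed factors, variants and proliferation genes, and up to 3 genes of each list by p. H2ac8, H2ac24, H2bc8, H2bc12 and the other members named were chosen after their values were seen. Matched by no symbol were H2aw, H2bu2 and H4f16 of the variants, Symk of the processing list, 3 RNAs without a tail and 1 erythroid marker. Proteins of the members were translated from their annotated coding transcripts and compared as sequences, without a separate protein reference, and none is printed.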

Additional observations from a re-analysis of the deposited data

Results flagged for a closer look

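H2ac14-ps, a pseudogene of the H2A family that the choice of protein-coding genes leaves out, had 41 counts in LC3b-/- F3 and 0 counts in the other 6 libraries. It stands here because a count outside the family exceeded the WT libraries, all of which had 0. It is a near-identical copy of H2ac24. None of the 19 sets of WT values tested (named members, class sums and the total of the family) held a sample apart from the others by Dixon's criterion. Groups of 3 were not tested.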

How the results depend on the processing

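The median log2 fold change of the histone genes stayed between −1.22 and −0.85 under every planned tool, scaling, filter, sample choice and left-out library, and the ratio of summed CPM between 0.515 and 0.582 in the alternatives planned for it. Chosen after seeing the data, leaving out the 4 highest members gave a median of −0.92 but a ratio of summed CPM of 0.666 with overlapping groups, while the 3 tested genes without a near-identical copy gave −0.25. Numbers of calls moved more. Over all genes they were 1831 with DESeq2, 124 with voom, 78 without a filter, 197 with sex as a covariate and 96 in females only; among histone genes 15, 3, 1, 3 and 0, and 1 with at least 10 counts in every library. Leaving out 1 library gave 11 (without LC3b-/- F3) to 485 (without LC3b-/- M) calls over all genes, where dropping WT F1 gave 215, F2 18, F3 16 and M1 20, and dropping LC3b-/- F1 gave 15. Among histone genes it gave 0 to 3, among G2 and mitosis genes 0 to 5, among chaperones 0 to 1, and for sex over all genes 0 to 3. DESeq2 called 2 variants, 1 processing gene, 1 poly(A) gene, 5 S phase genes, 16 mitosis genes and 3 chaperones; 1 mitosis gene was called with at least 10 counts and 1 with sex as a covariate, as was 1 processing gene. For sex, DESeq2 called 443 genes, voom 1, no filter 5 and no genotype term 1. The cause of these moves was not tested. Small log2 fold changes changed sign: Zfp473 was 0.034 with sex as a covariate, Lsm11 −0.070 and Npat −0.034 in females only, and with a library left out Slbp ran from −0.032 to 0.26, Zfp473 from −0.60 to 0.15, H3f3a from −0.037 to 0.13, Lsm11 from −0.029 to 0.20, Npat from −0.025 to 0.12 and H2bc21 from −0.32 to 0.00.

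The mouse names F1 and F3 occur in both genotypes but the mice are different, and the deviations of same-named libraries correlated at 0.146 and 0.243 while other pairs reached 0.535. The name is therefore no pairing. With it as a replicate block, the histone median was −0.96, 0 genes were called (Map1lc3b included) and Npat was −0.072. Depth limits the low members most: H2bc3 and H2bc11 had 0 to 17 counts in the LC3b-/- libraries.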

Other observations

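Annotated RNAs that overlap or copy the chromosome 3 histone cluster are given beside the cluster. Gm20634 had 734 to 1641 counts in the WT libraries and 466 to 925 in the LC3b-/- libraries (log2 fold change −1.01 ± 0.29 SE, edgeR adjusted p = 0.116), and Gm20632 had 106 to 159 and 68 to 94 counts (−0.91 ± 0.28, adjusted p = 0.125). Gm20633 had 43 to 93 and 44 to 52 counts (−0.53 ± 0.31, adjusted p = 0.325). Summed with H2ac18, H2ac19, H3c14 and H3c15, they stood at 179 to 285 CPM in WT and 100.1 to 123 CPM in LC3b-/-. H2ac5-ps, a second H2A pseudogene, had 11 counts in WT F2 and 0 in the other libraries.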
